A study of Mus musculus with 6 samples.

Results

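The genes described here are those of complex I of the mitochondrial respiratory chain that are carried by the nuclear genome. They were chosen by name: every gene of the deposited table whose symbol starts with Nduf, which gave 45 of 24421 genes. A complex I gene listed under another symbol is missed by this rule, so the set may not be complete. By their known roles, the 45 were 36 subunits of the enzyme, 7 assembly factors (the Ndufaf genes) and 2 genes that keep the name only, Ndufa4 and Ndufa4l2. Of the 45, 43 had enough reads to be tested.

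Complex I takes electrons from NADH, passes them along a chain of iron-sulfur clusters to ubiquinone, and uses the energy to pump protons across the inner mitochondrial membrane. Its matrix arm holds the NADH site and the clusters, and its membrane arm holds the proton pumps. Core subunits carry the chemistry, accessory subunits surround and stabilise them, and assembly factors help to build the enzyme without staying in it. The core subunits of the membrane arm are encoded by mitochondrial DNA, and those genes were not analysed here.

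RNA was measured in 4T1-tetL1(GLucAI) cells, which derive from 4T1, a mouse mammary carcinoma line of BALB/cfC3H origin. All cells of both groups carried an integrated PiggyBac cassette with a recoded mouse LINE-1 (L1) retrotransposon under a bidirectional doxycycline-responsive promoter, which also drives firefly luciferase, and with a Gaussia luciferase readout of retrotransposition. An EF1α promoter drove the Tet-On 3G activator protein and resistance to blasticidin, and the cells were a selected population rather than 1 clone. The 3 untreated libraries (called vehicle in the treatment field) were compared with 3 libraries from cells given doxycycline at 400 ng/mL for 48 h, to ask which transcripts change when L1 is induced. No group here received doxycycline without carrying the cassette, so the drug and L1 expression cannot be told apart, and since the cassette transcript was not analysed here, each direction below rests on the labels.

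The libraries held between 31653464 and 43631312 gene counts, of which the ribosomal RNA gene Rn45s took 8.83% to 12.1%. The 7 epithelial markers, such as Epcam and Krt18, lay between 4.25 and 669 CPM (counts per 1000000 of the scaled library total). The 5 leukocyte markers stayed at or below 0.561 CPM and the 3 endothelial markers at or below 0.601 CPM. Of the 4 fibroblast markers, Col3a1 was at 0 in every library, Col1a1 and Dcn stayed at or below 0.522 CPM, and Pdgfra lay between 35.2 and 37.6 CPM in untreated and between 27.3 and 28.6 CPM in doxycycline libraries. Its part in the results below was not tested. The study calls the samples biological triplicates, while no label says that the libraries came from separate cultures. The p-values measure the spread between these libraries, which may be technical if the cultures were not separate.

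Complex I genes differed little between the groups. Only Ndufv3, an accessory subunit of the NADH-binding end of the matrix arm, passed the test, and it was lower in the doxycycline libraries. Of the 43 tested members, 1 (2.33%) was called lower and 0 higher by edgeR at an adjusted p under 0.05. Of all 13084 genes tested, 3.09% were called, 2.16% lower and 0.925% higher. The members' share of calls was thus close to that of all genes. At an unadjusted p under 0.05, 6 members passed (5 lower and 1 higher), which is 14% against 16.2% of all genes (8.95% lower and 7.25% higher).

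The members' differences were small and closely measured. Log2 fold changes (doxycycline against untreated) ran from -0.354 to 0.148 with a median of -0.058, where the median of all genes tested was 0.0025. Values below 0 were seen for 29 members (67.4%), against 49.2% of all genes. The 95% interval of every one of the 43 members lay within a 1.5-fold change in either direction, as did that of 10249 of the 13084 genes. Members were more abundant, with a median untreated level of 45.3 CPM against 24.5 CPM over all genes tested. The median half-width of the interval (log2 scale) was 0.149 for members and 0.169 for all genes tested. Apart from Ndufv3, the largest fitted difference of any member was 13.4%. CPM of the 2 groups did not overlap for 5 members (11.6%), 3 higher (Ndufs1, Ndufb8 and Ndufaf1) and 2 lower (Ndufv3 and Ndufaf7) with doxycycline, against 21.3% of all genes (10.1% higher and 11.1% lower).

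**Figure D1:**
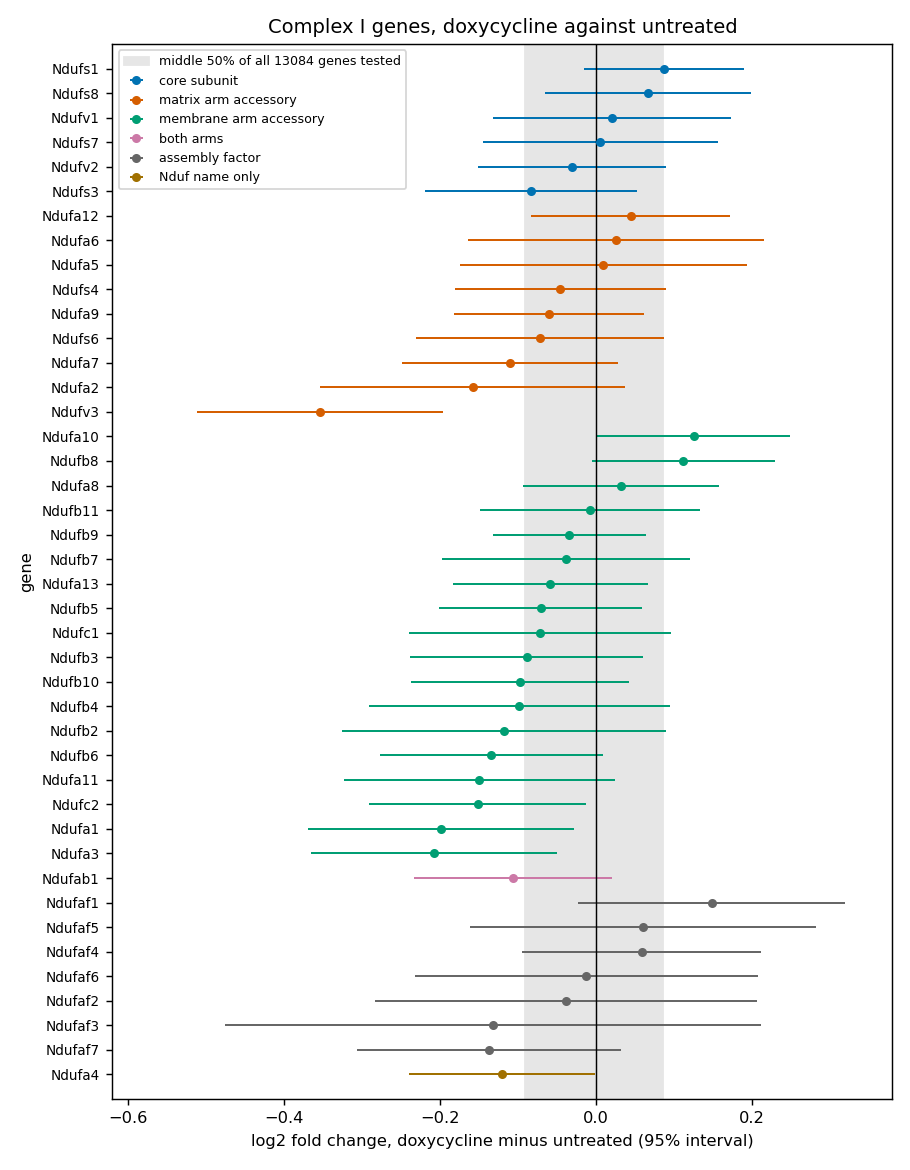
Log2 fold change of 42 of the 43 tested complex I genes (x axis, doxycycline minus untreated) with its 95% interval from edgeR, grouped by role on the y axis. The interval of Ndufv3 ends at -0.197 and lies wholly below 0, the grey band holds the middle 50% of all genes tested, and most other intervals cross 0.

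The size of the median moved with 1 library, while its sign did not. Expressed as the deviation from each gene's mean over the 6 libraries, the median over the 43 members was 0.083 (log2 scale) in untreated replicate 1, -0.037 in untreated replicate 2 and 0.0077 in untreated replicate 3. In doxycycline replicates 1 to 3 it was -0.0045, -0.059 and -0.022. Untreated replicate 1 stood above the other 5 libraries, and the untreated and doxycycline medians overlapped. Rn45s took 8.83%, 11.0% and 9.64% of the counts in untreated replicates 1 to 3, and 9.60%, 12.1% and 10.5% in doxycycline replicates 1 to 3. The members' median was highest in the library with the lowest Rn45s share and lowest in the library with the highest. Whether the Rn45s share plays a part was not tested. Of the 43 members, 17 (39.5%) had their highest value in untreated replicate 1, where 15.2% of all genes did. Without that library the members' median log2 fold change was -0.025 and 26 members were below 0.

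**Figure D2:**
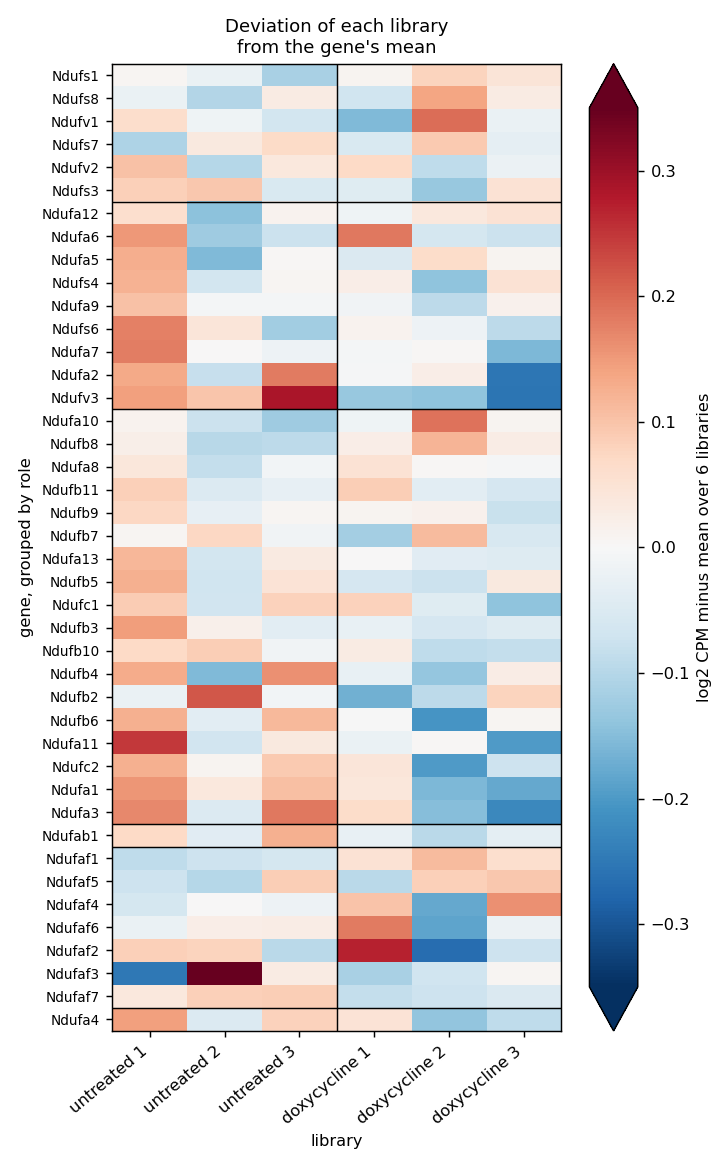
Deviation of log2 CPM from the gene's mean over the 6 libraries (colour) for 42 tested complex I genes (rows, grouped by role) in each library (columns). Accessory subunits are mostly red in untreated replicate 1, where the median over all members was 0.083, while the 7 assembly factors had a median of -0.062 there.

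Summed over all members, with Ndufa4 and the assembly factors included, Nduf transcripts made up 0.190% to 0.207% of the counts of a library. The sum was 2058, 1914 and 1970 CPM in untreated replicates 1 to 3, and 1958, 1930 and 1919 CPM in the doxycycline libraries. The untreated range enclosed all 3 doxycycline values. Replicate scatter was of the same order as in other genes: the median coefficient of variation of a member was 6.11% among untreated and 5.68% among doxycycline libraries, against 5.39% and 7.16% over all genes tested.

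Levels of the genes were compared per kilobase of transcript (CPM per kb), since the subunits differ in length. Each gene was given the length of a single transcript, the longest of its protein-coding models with a RefSeq match where such a model existed. The levels and their order depend on that choice. Among the structural subunits the untreated level spanned 16.4-fold, from 14.5 CPM per kb for Ndufab1 to 238 for Ndufb9. Ndufab1 was low through its transcript model of 3479 bases, since its untreated 50.6 CPM was above the members' median of 45.3 CPM. The 7 core subunits had a median of 45.3, and Ndufv1 was the lowest of them at 30.9. The accessory subunits had medians of 37.5 in the matrix arm and 48.3 in the membrane arm. Assembly factors were lower, with a median of 11.1 CPM per kb and a range from 3.23 for Ndufaf3 to 19.4 for Ndufaf2. Among them Ndufaf4, at 12.6 CPM per kb, was low through its transcript model of 3632 bases. Its untreated 45.7 CPM was also above the members' median CPM. In the order of untreated levels, 31 of the 42 neighbouring pairs overlapped in their 3 untreated values, so most neighbours did not differ beyond their spread.

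Ndufb9, of the membrane arm, stood first at 238 ± 8.42 CPM per kb (SD, n = 3) in untreated and 232 ± 8.36 in doxycycline libraries. Ndufa4 came next at 192.9 ± 12.96 and 177.7 ± 11.97. The untreated values of these 2 genes did not overlap each other, and both stood above the rest, of which Ndufa7 (99.4) and Ndufa3 (99.3) were the nearest. Reads of Ndufb9 are uncertain, since 23.4% of the 50-base stretches of its transcript also occur in the overlapping gene model Gm49356.

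**Figure D3:**
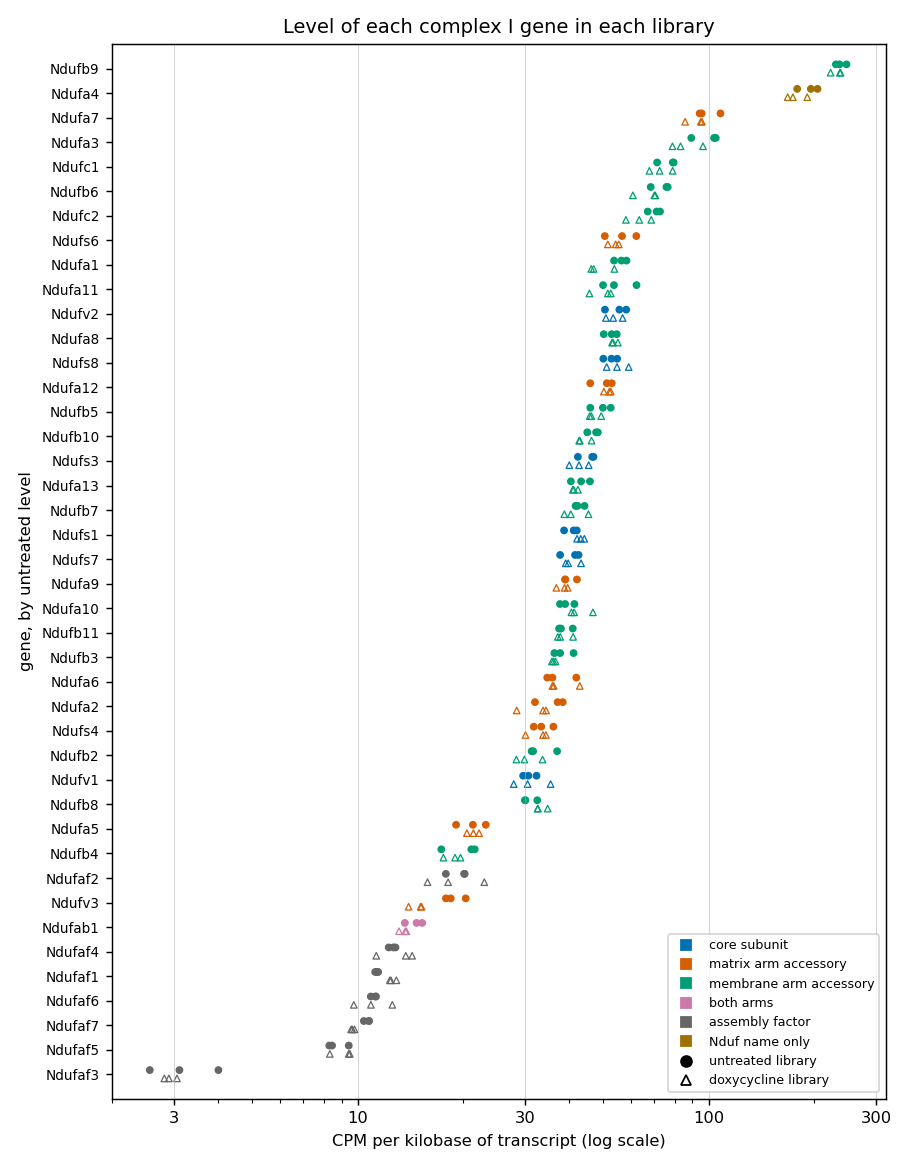
Level of 42 tested complex I genes in CPM per kilobase of transcript (x axis, log scale) in each untreated (filled circles) and doxycycline (open triangles) library, ordered by untreated level and coloured by role. Ndufb9 and Ndufa4 lie at the top, the core subunits plotted have untreated means of 30.9 or more, and 6 of the 7 assembly factors fill the lowest ranks, with Ndufaf2 above Ndufv3 and Ndufab1.

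The core subunits of the matrix arm gave no call. Their values were 5 above and 2 below 0, with a median log2 fold change of 0.016. Ndufv1, which binds NADH and the flavin, measured 53.7, 50.9 and 49.2 CPM in untreated and 46.3, 58.9 and 50.7 CPM in doxycycline libraries. The doxycycline values ranged more widely than the untreated ones and enclosed them (log2 fold change 0.020, SE 0.073, adjusted p = 0.927 by edgeR). Ndufv2, its iron-sulfur partner, differed by -0.031.

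Ndufs1, the largest subunit and the carrier of several iron-sulfur clusters, had the highest log2 fold change of the core. It measured 112.1, 109.8 and 103.1 CPM in untreated and 112.3, 117.8 and 115.1 CPM in doxycycline libraries. All 3 doxycycline values were above the untreated ones, the closest pair differing by less than 1 CPM, and the difference did not pass the test (log2 fold change 0.087, SE 0.049, adjusted p = 0.405 by edgeR). Ndufs7, next to the ubiquinone site, differed by 0.0056. Ndufs8, which carries iron-sulfur clusters, differed by 0.067. Ndufs3 was the lowest of the core at -0.083 (SE 0.065, adjusted p = 0.573 by edgeR), and 39.7% of its 50-base stretches occur in other genes.

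Among the 9 accessory subunits of the matrix arm, 3 values were above and 6 below 0, with a median of -0.060. Ndufv3 lies on chr17:31520115-31531326 (GRCm38, plus strand), overlaps no other gene and shares no 50-base stretch with one. It measured 29.1, 28.2 and 32.2 CPM in untreated libraries and 24.1, 23.9 and 22.1 CPM in doxycycline libraries. All 3 doxycycline values lay below all 3 untreated ones, with group means of 29.8 ± 2.05 and 23.4 ± 1.095 CPM (SD, n = 3).

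The fitted level of Ndufv3 fell by 21.8% (log2 fold change -0.354, SE 0.076, 95% interval -0.511 to -0.197, adjusted p = 0.0098 by edgeR). The call rested on 942 to 1280 reads in untreated and 765 to 977 reads in doxycycline libraries. It was lost without untreated replicate 3, the highest (log2 fold change -0.298, adjusted p = 0.118), and without doxycycline replicate 3, the lowest (-0.315, adjusted p = 0.0749). Calls over all genes also fell in these fits, from 121 higher and 283 lower to 44 and 116 without untreated replicate 3. Without doxycycline replicate 3 they were 66 and 149. Ndufv3 is known to be made as a short and a long isoform, which counts per gene do not separate.

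The other matrix arm accessory subunits did not pass the test. Ndufs4 and Ndufs6, which join the NADH-binding module late in assembly, differed by -0.046 and -0.072. Ndufa9, which holds a nucleotide at the joint of the arms, differed by -0.060. Ndufa12 was the highest of these accessory subunits at 0.044 (SE 0.061, adjusted p = 0.784 by edgeR). Ndufa2 at -0.158 and Ndufa7 at -0.110 were the lowest after Ndufv3, and the intervals of both crossed 0.

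Among the complex I roles with several tested members, the membrane arm leaned furthest to the lower side, again with no call. Of its 18 tested accessory subunits, 15 were below 0 and 3 above, with a median of -0.080, and the group median was highest in untreated replicate 1 (0.102 above the genes' means). Ndufa3, a small subunit with a single membrane span, was the lowest. It measured 53.4, 46.0 and 54.0 CPM in untreated and 49.7, 42.9 and 40.6 CPM in doxycycline libraries. Doxycycline replicate 1 lay above untreated replicate 2, so the groups overlapped (log2 fold change -0.207, SE 0.076, adjusted p = 0.158 by edgeR).

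Ndufa3 was called lower without doxycycline replicate 1 (-0.294, adjusted p = 0.0184 by edgeR). Ndufa1, an X-linked subunit, measured 24.5, 22.5 and 23.7 CPM in untreated and 22.6, 19.7 and 19.4 CPM in doxycycline libraries, and differed by -0.199 (SE 0.082, adjusted p = 0.221 by edgeR). Ndufc2 differed by -0.151 (adjusted p = 0.258). In both genes a doxycycline value reached past the lowest untreated value.

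At the other end of the membrane arm, Ndufa10, a subunit related to nucleoside kinases, measured 83.8, 78.8 and 76.2 CPM in untreated and 82.2, 94.6 and 83.6 CPM in doxycycline libraries. The groups overlapped, with doxycycline replicate 2 far above the rest (log2 fold change 0.125, SE 0.060, adjusted p = 0.304 by edgeR). Ndufb8 measured 69.6, 64.2 and 64.4 CPM in untreated and 69.8, 74.5 and 69.9 CPM in doxycycline libraries. Its groups did not overlap, but untreated replicate 1 and doxycycline replicate 1 differed by less than 1 CPM (0.112, SE 0.056, adjusted p = 0.336 by edgeR). Ndufa8 was the only other subunit of this arm above 0, at 0.032. Ndufab1, the mitochondrial acyl carrier protein, which sits in both arms, differed by -0.106 (SE 0.061, adjusted p = 0.410 by edgeR).

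**Figure D4:**
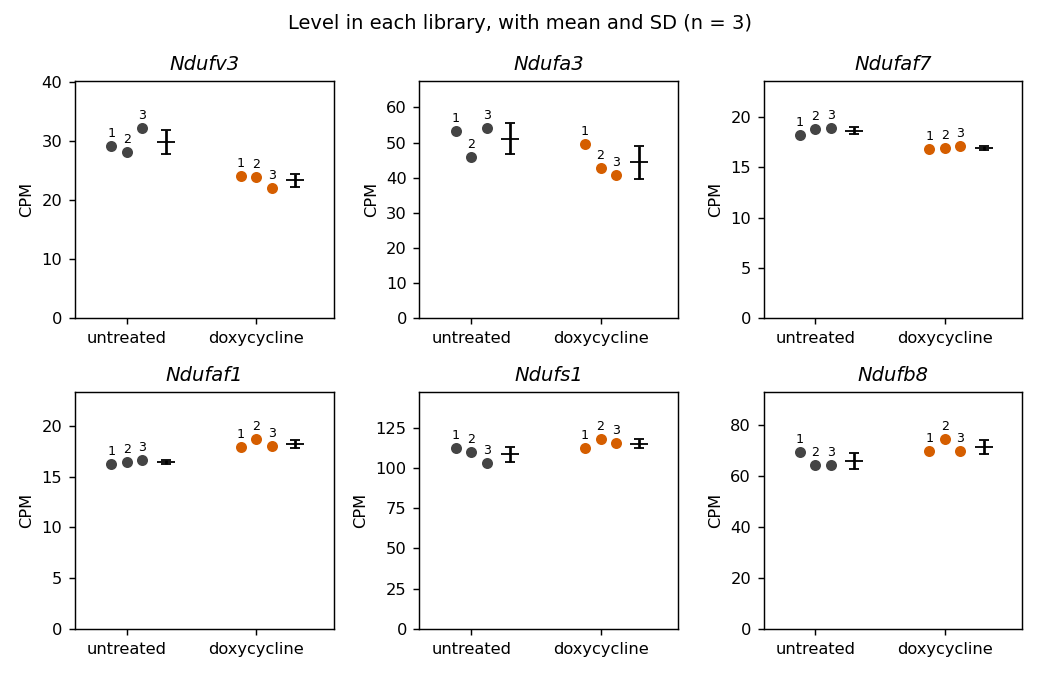
CPM (y axes, from 0) of Ndufv3, Ndufa3, Ndufaf7, Ndufaf1, Ndufs1 and Ndufb8 in each library (points, numbered by replicate), with the mean and SD of each group of 3 (bars). The groups overlap for Ndufa3 and are apart for the other 5 genes, of which Ndufv3 shows the widest gap.

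One subunit of the membrane arm, Ndufs5 (chr4:123712710-123718186, GRCm38, minus strand), was listed at 0 in all 6 libraries. A count of 0 allows up to 0.0688 CPM in the largest and 0.0948 CPM in the smallest library, for counting error only. Of its 50-base stretches, 41.2% also occur in the processed pseudogene BC002163, which held 10 to 17 counts per library. Rpl26, a ribosomal protein gene that every cell uses, was also listed at 0 in every library. The cause of these zeros was not tested, and they are not read as absence of the transcript.

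The 7 assembly factors gave no call, with 3 values above and 4 below 0 and a median of -0.012. Ndufaf1, which belongs to the complex that assembles the membrane arm, measured 16.3, 16.5 and 16.6 CPM in untreated and 17.9, 18.7 and 18.1 CPM in doxycycline libraries. The groups did not overlap, and its log2 fold change of 0.148 was the highest of all members (SE 0.082, adjusted p = 0.395 by edgeR). Ndufaf7, a methyltransferase, measured 18.2, 18.8 and 18.9 CPM in untreated and 16.8, 16.9 and 17.1 CPM in doxycycline libraries. Its groups did not overlap either, in the opposite direction (-0.137, SE 0.082, adjusted p = 0.427 by edgeR).

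Ndufaf3 and Ndufaf4 act together on the part of the matrix arm that holds the ubiquinone site. Ndufaf3 was the least abundant tested member, at 4.80 ± 1.09 CPM in untreated and 4.35 ± 0.184 CPM in doxycycline libraries (SD, n = 3), and had the widest interval, from -0.475 to 0.211. Ndufaf4 differed by 0.059. Ndufaf5, which modifies Ndufs7, and Ndufaf6 differed by 0.060 and -0.012. Ndufaf2, which acts late, differed by -0.038, and 65.6% of its exon sequence is overlapped by the antisense RNA B230220B15Rik, so its reads are uncertain where strand was not used in counting.

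Both genes that carry an Nduf name without being subunits of the enzyme gave no call. Ndufa4, now assigned to cytochrome c oxidase, measured 124.7, 109.1 and 119.3 CPM in untreated and 116.6, 102.5 and 106.1 CPM in doxycycline libraries. The groups overlapped (log2 fold change -0.120, SE 0.057, adjusted p = 0.305 by edgeR). Its hypoxia-inducible relative Ndufa4l2 was at the edge of detection, with 0, 3 and 9 counts in untreated and 3, 10 and 9 counts in doxycycline libraries, and was not tested.

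Log2 fold changes of the members were higher in longer transcripts. Across the 43 genes, which share libraries and are not independent, Spearman's rho between transcript length and log2 fold change was 0.480, while over all genes tested it was -0.024. Of the 21 members shorter than the median of 971 bases, 17 were below 0, with a median log2 fold change of -0.089. Of the 21 longer ones, 11 were below 0, with a median of -0.012. Roles differed in length as well, from a median of 718 bases in the membrane arm to 1623 bases in the core, and their parts were not tested separately. With length and GC content corrected for within each library, rho was 0.405 and the members' median -0.040.

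**Figure D5:**
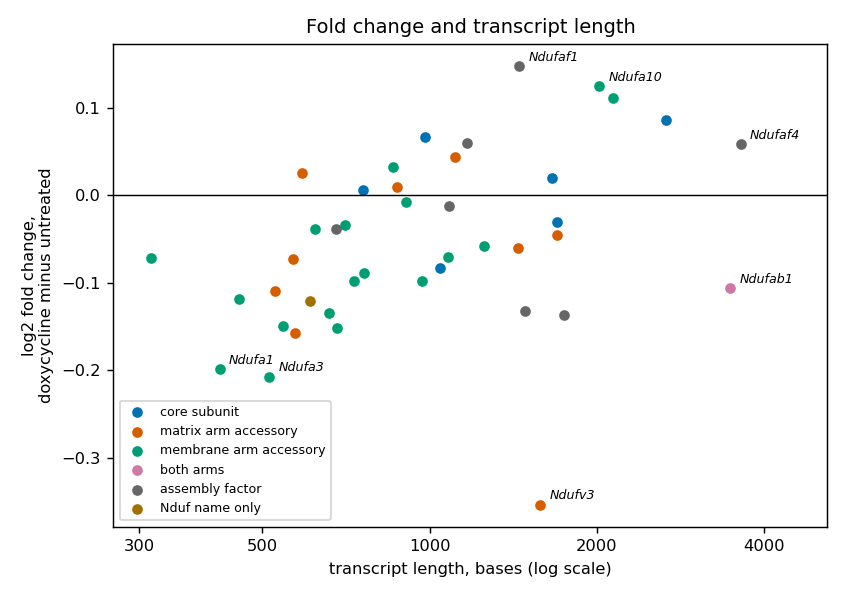
Log2 fold change (y axis, doxycycline minus untreated) against transcript length in bases (x axis, log scale) for 42 of the 43 tested complex I genes, coloured by role. Most short transcripts lie below 0, the longer ones scatter around it, and Ndufv3 lies apart at -0.354.

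Promoters of complex I genes are known to hold sites for NRF1, for ETS factors such as GABP, and for YY1. RefSeq promoters (GRCm38.p6, 250 bases before to 50 after the start) were found for 39 members and searched on both strands for GCATGCG (NRF1), CCGGAAG (ETS) and AAGATGG (YY1). At least 1 of these was present for 17 members (43.6%), against 22.6% of the 17224 table genes with a promoter. Those table genes include ones with too few reads to be tested, and shares over tested genes alone were not taken for these searches. The NRF1 letters were found for 5 members (12.8% against 5.06%), the ETS letters for 5 (12.8% against 12.8%) and the YY1 letters for 7 (17.9% against 7.34%). GCATGCG overlaps its own reverse complement by all but 1 base, so matches on both strands can be the same place. Ndufv3 held none of the 3 motifs.

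The YY1 matches are shown because they shared a place. All 7 were on the gene's strand, beginning 22 to 38 bases after the start, and in all 7 the ATG inside the motif was the start codon of the GENCODE annotation. In the 50 bases after the start and on the gene's strand, 2.82% of the 9798 tested genes with a promoter held these letters, and 1.54% of all 27025 genes of the promoter table. How often such matches span the start codon in other genes was not counted, so that place is not read as particular to complex I. Below, 30 bases of each are written 5′ to 3′ on the gene's strand with the motif in capitals.
Ndufa3 (chr7:3617383-3617412, plus strand): gccgccaagaacAAGATGGccgggagtaag
Ndufa9 (chr6:126849098-126849127, minus strand): gcattgtgggagAAGATGGcggccgccgtc
Ndufb8 (chr19:44555393-44555422, minus strand): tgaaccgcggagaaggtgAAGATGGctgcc
Ndufc1 (chr3:51408916-51408945, minus strand): agcctgcggaacAAGATGGcgccgtccgta
Ndufs4 (chr13:114388045-114388074, minus strand): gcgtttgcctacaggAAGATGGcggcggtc
Ndufs6 (chr13:73328433-73328462, minus strand): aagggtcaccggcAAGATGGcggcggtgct
Ndufs7 (chr10:80249461-80249490, plus strand): aaggccgaggccAAGATGGcggcgctggcg

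The log2 fold changes of these 7 genes ran from -0.207 for Ndufa3 to 0.112 for Ndufb8, and none was called. Whether they move together was not tested. For comparison, 1 promoter with NRF1 letters and 1 with ETS letters on the gene's strand are shown with the motif in capitals.
Ndufa6, NRF1 (chr15:82354357-82354386, minus strand): ttccgcggtagaGCATGCGcattgcagagc
Ndufaf1, ETS (chr2:119662835-119662864, minus strand): gcgggaccacaaCCGGAAGcgtggcgaacc

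Ndufa6 differed by 0.026 and Ndufaf1, as above, by 0.148. The factors themselves gave no call. Nrf1 differed by 0.108 (adjusted p = 0.447 by edgeR), Gabpa by -0.0027 and Yy1 by -0.143 (adjusted p = 0.441), with Yy1 at 153, 115 and 143 CPM in doxycycline against 147, 157 and 150 CPM in untreated libraries. A match of these letters is a description of the sequence and was not tested for binding.

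Other genes of the pathway, taken from lists that may not be complete, gave no call either. Of 10 tested assembly factors without an Nduf symbol, such as Acad9 and Ecsit, 0 were called, 8 were above and 2 below 0, and the median log2 fold change was 0.054. Of 9 tested regulators of mitochondrial genes, 0 were called and the median was -0.0027. The coactivator Pprc1 came nearest at 0.168 (205, 200 and 197 CPM in untreated and 207, 238 and 231 CPM in doxycycline libraries, adjusted p = 0.0806 by edgeR), with groups that did not overlap.

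The other respiratory complexes gave 0 calls as well. The 4 complex II genes had a median of -0.059. Nuclear genes of complexes III, IV and V were taken by symbols that start with Uqcr, Cox4 to Cox8 or Atp5, and the 37 that were tested had a median of -0.037 with 28 below 0. That rule takes in Atp5s and Atp5sl, which are not subunits of complex V, and Atp5sl is also counted above among the assembly factors under its newer name Dmac2. Left out after the values were seen, they leave 35 genes with a median of -0.072, 28 below 0 and 0 calls. In the 37 genes too, the median deviation was highest in untreated replicate 1 (0.086, against 0.025 or less in the other 5 libraries). At an unadjusted p under 0.05, 4 of the 37 were lower and 0 higher by edgeR. Taken by symbol, 4 of 8 complex III genes were below 0 (median -0.0015). In complex IV 11 of 12 were (median -0.061), and in complex V 13 of 17 (median -0.073). Whether complex I differs from them was not tested.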

How the data were processed

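Ribosomal RNA was removed from total RNA, and libraries were made with a kit that marks strand. Alignment by the authors was to UCSC mm10/GRCm38 with STAR, and reads per gene were counted in featureCounts (the submitters' notes name Subread 1.6.2 and bcl2fastq 2.20). Their deposited values are raw counts of 24421 genes in 6 libraries, with no normalization. The strand setting and the treatment of multimapping reads are not given in the sources used here, and either can move reads between overlapping or near-identical genes.

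Groups came from the sample titles. Groups were compared in edgeR 4.0.16 (R 4.3.3) by its quasi-likelihood test, two-sided and robust, with TMM scaling, the filterByExpr filter (13084 genes kept), the group as the only term and Benjamini-Hochberg adjustment over all genes tested at 0.05. The study used DESeq2. SE is the absolute log2 fold change over the square root of F, and intervals are 95%. CPM used TMM-scaled totals. Replicate pairs differed by a chi-square per degree of freedom of 6.14 to 22.1, so each library was counted once. The test was checked on simulated data.

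Roles, pathway lists and motifs were written from general knowledge. The members and lists were chosen with earlier results of these data known. Named by rule were called members, the 7 core subunits, Ndufa4, Ndufa4l2, and the highest and lowest tested member of each role, and further members are given as examples. Of the tested members, 1 is not reported by name here and is left out of the figures, though it is kept in all counts. Transcripts and start codons were from GENCODE vM21, positions and promoters from RefSeq GRCm38.p6, counted from 1. Lengths were found for all tested members and 99.28% of all genes tested. Alternatives were DESeq2 1.42.0 size factors, upper quartile factors, no filter, library size only, a minimum of 10 counts per library, the DESeq2 Wald test, limma 3.58.1 voom, a replicate block, no Rn45s, a GC and length correction, and leaving out each library.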

Additional observations from a re-analysis of the deposited data

How the results depend on the processing

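Ndufv3 was called lower in all 10 alternatives that kept the 6 libraries and in 4 of the 6 fits that left out 1 library. Its log2 fold change ran from -0.390 to -0.298 over all 16, and its adjusted p from 0.00063 to 0.118 (edgeR, except where the alternative is another tool). The number of members called lower was 2 without the filter on low counts, where Ndufa3 joined (-0.211, adjusted p = 0.0400) (the cause was not tested), and 0 to 2 when 1 library was left out. It was 0 without untreated replicate 3 and without doxycycline replicate 3, and 2 without doxycycline replicate 1. No member was called higher under any of the 16. The members' median log2 fold change ran from -0.073 to -0.025 when 1 library was left out, the last without untreated replicate 1, and from -0.069 to -0.040 under the other 10. Of the 240 values of named members under alternatives, 236 kept their side of the threshold, and 11 values, of 5 members, changed sign. Replicate numbers are shared by the groups, but same-numbered libraries did not deviate together (correlations of -0.040, -0.0045 and 0.018). No pairing was detected, though correlations over all genes cannot show that none exists. With the replicate block, 1 member was called lower and 0 higher, and the members' median was -0.055. Over all genes, the 121 higher and 283 lower calls became 210 and 439 without the filter, 399 and 516 after the GC and length correction, and 44 to 269 higher and 116 to 487 lower with 1 library left out. Depth limits Ndufa4l2, with at most 10 counts in a library, and Ndufaf3, with 133 to 199, had the widest interval.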
